A study of Mus musculus with 15 samples.

Results

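Genes that mark alveolar macrophages or carry the signals on which these cells depend were followed across whole mouse lung after silica, dimethyl sulfoxide (DMSO) or both. They were chosen by gene name, 10 of the 57010 genes in the count table, and all 10 passed the filter on low counts that left 17630 genes to test. The set holds the cytokines Csf2 (GM-CSF) and Csf1 (M-CSF), the receptor genes Csf2ra, Csf2rb and Csf1r, the nuclear receptor Pparg, and 4 genes of abundant macrophage products, Chil3, Ear1, Ear2 and Plet1. The members did not share 1 direction after silica, with fitted values above 0 for 8 and below 0 for 2. Csf2rb stood higher in every silica library than in every control library on the scale tested, where 5.41% of all genes did. Ear1 stood lower in every silica library, where 5.19% of all genes did. The groups overlapped for the other 8, and no member was called by edgeR in any comparison.

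Alveolar macrophages live on the airspace surface, where they take up particles and clear surfactant lipid. GM-CSF, made in the lung largely by epithelium, acts through a receptor of a specific alpha chain (Csf2ra) and a signalling beta chain (Csf2rb), and it induces PPARG, the transcription factor that gives these cells their identity and lipid handling. M-CSF acts through a separate receptor kinase, Csf1r, which all macrophages carry. Inhaled silica crystals are taken up by alveolar macrophages and damage them, and chronic exposure leads to silicosis.

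The study asked what DMSO does to the lung response to mineral dust. C57BL/J mice of the control group received physiological saline, those of the DMSO group DMSO, those of the silica group a suspension of silica as nasal drops, and those of the silica_DMSO group silica followed by DMSO on the next day. All lungs were taken at day 30. The age and sex of the animals, the dose and the number of animals behind a library are not given in the labels, no genotype other than the strain is named, and the RNA extraction notes speak of retinas although the tissue is labelled lung. Replicate numbers do not state separate animals, so p-values measure the spread between these libraries, which may be technical.

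There were 15 libraries, of which 12 were used in the main fit: control 1, 2, 4 and 7, DMSO 1, 4 and 6, silica 1, 2 and 7, and silica_DMSO 2 and 5, and values are given in this order. Total counts ran from 17434653 to 20829923 per library. The libraries labelled DMSO 7, silica_DMSO 4 and silica_DMSO 6 held thymus transcripts, with Rag1 at 2541 to 3876 CPM (counts scaled to the library total) against at most 0.224 CPM in the other 12 and Foxn1 at 9.17 to 27.0 CPM against 0, and are given separately as thymus-like. Among the 12, genes longer than 3000 bases took 11.5% to 24.2% of the counts in 5 libraries (control 1, DMSO 1, DMSO 4, silica 7 and silica_DMSO 5, called short-gene libraries) and 34.0% to 44.9% in the other 7, so differences within each class are given beside the results they touch. In whole lung, fewer macrophages and less RNA per macrophage cannot be told apart.

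Among the members, Ear1 and Ear2 are near copies, which bears on every value given for them. Both encode secreted ribonucleases of the eosinophil-associated family that mouse alveolar macrophages also make. RefSeq start-site windows on GRCm38.p6 were found for 8 of the 10 members. The windows of Ear1 (chr14:43819590-43819889, minus strand) and Ear2 (chr14:44102404-44102703, plus strand) are printed 5′ to 3′, because they show how little separates the pair. Capitals mark bases that differ or have no partner in the alignment of the 2 windows. Those at the outer ends arise because the windows are offset by a few bases. The window of Ear6 (chr14:51853518-51853817, plus strand), a relative that behaved differently after silica, follows in lower case only.
Ear1: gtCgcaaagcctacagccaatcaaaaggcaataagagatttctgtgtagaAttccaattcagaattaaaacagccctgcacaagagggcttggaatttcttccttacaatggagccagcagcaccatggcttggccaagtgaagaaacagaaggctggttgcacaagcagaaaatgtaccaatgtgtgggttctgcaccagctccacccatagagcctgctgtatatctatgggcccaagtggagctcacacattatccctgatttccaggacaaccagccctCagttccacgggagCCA
Ear2: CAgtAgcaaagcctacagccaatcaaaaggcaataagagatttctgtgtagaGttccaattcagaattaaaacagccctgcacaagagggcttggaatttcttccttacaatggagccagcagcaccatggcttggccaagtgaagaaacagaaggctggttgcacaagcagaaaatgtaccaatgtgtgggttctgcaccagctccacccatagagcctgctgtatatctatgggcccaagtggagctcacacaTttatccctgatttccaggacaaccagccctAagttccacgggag
Ear6: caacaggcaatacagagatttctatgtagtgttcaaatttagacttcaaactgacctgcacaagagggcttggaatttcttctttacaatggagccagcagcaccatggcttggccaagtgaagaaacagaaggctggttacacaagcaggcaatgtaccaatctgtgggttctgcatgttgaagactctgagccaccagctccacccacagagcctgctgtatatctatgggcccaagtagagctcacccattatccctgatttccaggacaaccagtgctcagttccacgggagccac
Of 303 aligned positions in the Ear1 and Ear2 windows 294 were identical (97.0%), against 80.7% identity between the Ear1 and Ear6 windows. The longest protein-coding transcripts of Ear1 and Ear2 in GENCODE M21 were 96.0% identical, and 23.8% of all 50-base stretches of the Ear1 transcript also occurred in that of Ear2. The Ear1 and Ear6 transcripts shared 1.36% of such stretches. A read that lies wholly in a shared stretch cannot be assigned to 1 gene by its sequence. In control 1 the deposited estimates were 569.71 for Ear1 and 1038.29 for Ear2, both fractional. In control 7 they were 548 and 1392, both whole. How such reads were divided is not given.

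Other pairs share sequence too. Csf2rb and its neighbour Csf2rb2, which encodes the beta chain of the mouse IL-3 receptor, were 86.2% identical with 18.4% of the 50-base stretches of Csf2rb found in Csf2rb2. Chil3 and Chil4 were 94.3% identical, with 18.5% of the stretches of Chil3 found in Chil4, but Chil4 was listed with only 1 to 9 counts per lung library. Values for Ear1, Ear2 and Csf2rb are uncertain to the extent that reads were split between these copies. The letters TTGCNNAA, bound by C/EBP factors, occurred on either strand in the windows of Ear1, Ear2, Csf2 and Plet1 and in 1 of the 3 Pparg windows, against 10.8% of all 32851 windows. The letters GAGGAA, the core bound by the macrophage factor PU.1, occurred in the Csf2ra window and in 1 Pparg window, and 28.3% of all windows hold them. No window of a member held both, and a match describes letters only.

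Levels per gene length, in TPM (transcript abundance scaled to a fixed sum per library), spread the members widely. Chil3, a secreted chitinase-like protein, was the most abundant with a median of 352 TPM over the 12 lung libraries and a range of 163 to 614 TPM. Ear2 followed with a median of 119 TPM (23.4 to 230 TPM), then Ear1 with 41.3 TPM and Plet1, a surface protein of alveolar macrophages and of some epithelia, with 37.7 TPM. The range of Ear1, 9.23 to 93.9 TPM, enclosed that of Plet1, 23.5 to 78.8 TPM, so their order is not fixed by these libraries. Median levels were 20.8 TPM for Csf1r, 15.4 TPM for Csf1, 10.3 TPM for Csf2ra, 8.34 TPM for Pparg, 5.52 TPM for Csf2rb and 3.67 TPM for Csf2. Each of these neighbours overlapped the next in range. The Csf1r range was 3.17 to 70.0 TPM, that of Csf2ra 0.57 to 54.2 TPM, and that of Csf2 only 1.47 to 6.69 TPM.

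**Figure D1:**
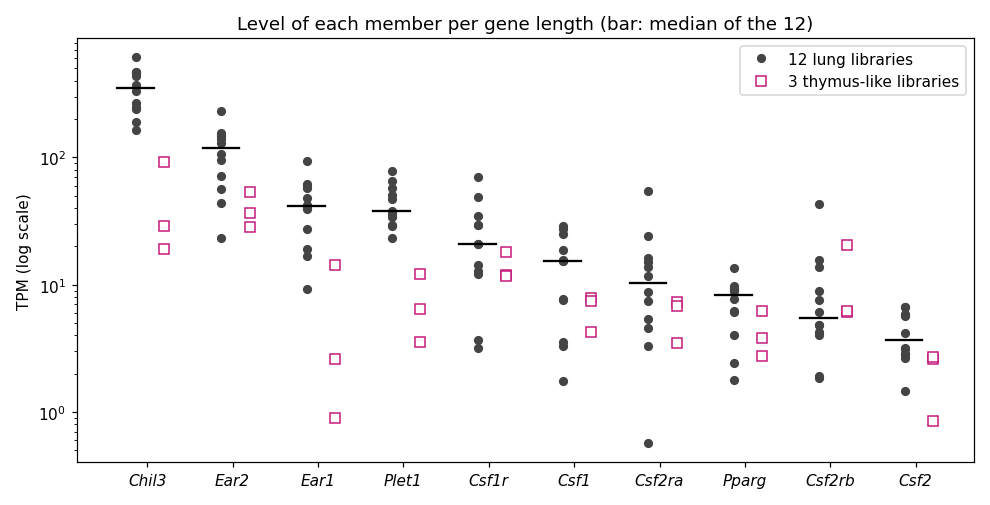
TPM (log scale) of each member in every library, ordered by the median of the 12 lung libraries (bar), with the 3 thymus-like libraries as open squares. Chil3 was highest in the lung libraries at a median of 352 TPM, and the thymus-like libraries held at most 91.9 TPM of it.

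The 3 thymus-like libraries held less of the macrophage products than any lung library for Chil3 and Plet1. Chil3 stood at 91.9, 28.9 and 19.1 TPM in DMSO 7, silica_DMSO 4 and silica_DMSO 6 in turn, against at least 163 TPM in lung. Plet1 stood at 12.2, 6.45 and 3.55 TPM there. Csf2rb was not low, at 6.10, 20.5 and 6.19 TPM. Pparg, at 2.78 to 6.24 TPM, and Csf1r, at 11.8 to 18.0 TPM, lay within the lung range.

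Silica was compared with control first. In the fit of 12 libraries, edgeR called 0 of the 10 members at an adjusted p under 0.05. It called 0.0113% of all genes tested (2 genes). At an unadjusted p under 0.05 stood 2 members and 1055 of the 17630 genes. DESeq2 called 1 member, Csf2rb, and 0.851% of all genes. Fitted log2 fold changes were above 0 for 8 members and below 0 for 2, with a median of 0.43 against -0.03 over all genes. On normalised CPM (CPM scaled by TMM factors, the scale tested and used for the values per library that follow), 1 member lay above the controls in every silica library, where 5.41% of all genes did, and 1 lay below, where 5.19% did.

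Of the ligands, Csf2 was the rarer. Csf2 measured 3.01, 0.683, 1.08 and 1.62 normalised CPM in the control libraries, 2.50, 4.62 and 2.08 in DMSO, 2.04, 3.01 and 5.81 in silica, and 2.50 and 16.2 in silica_DMSO. These rest on 15 to 169 counts per library. The highest value was that of silica_DMSO 5, and the silica and control libraries overlapped on this scale. The log2 fold change of silica against control was 1.18 ± 0.68 (SE, edgeR adjusted p = 0.97), and 0.66 without silica 7. In TPM the groups did not overlap, at 1.47 to 3.20 TPM in the 4 control and 5.66 to 6.65 TPM in the 3 silica libraries. The share of all genes that did not overlap in TPM was not counted. Csf2 was lower in libraries with a higher share of counts in long genes (Pearson r = -0.82 over the 12 libraries, a description), and its silica difference was 1.14 in the long-gene libraries (2 against 3) and 0.93 in the short-gene ones (1 against 1), on the log2 scale.

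Csf1, the M-CSF ligand made by many structural cells, did not separate the groups. Csf1 measured 36.1, 41.7, 68.7 and 45.0 normalised CPM in control, 18.0, 13.9 and 47.7 in DMSO, 58.5, 59.5 and 35.5 in silica, and 69.9 and 39.2 in silica_DMSO. The 2 lowest values were the short-gene libraries DMSO 1 and DMSO 4. Silica against control gave a log2 fold change of 0.10 ± 0.44 (SE). Markers of fibroblasts and mesothelium, a list of possible sources, pointed downward at 7 of 8 genes with a median log2 fold change of -1.52, with Upk3b at -3.79 ± 1.21 and Lrrn4 at -3.99 ± 1.28 (edgeR adjusted p = 0.547 and 0.549), and their part in the Csf1 values was not tested.

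Csf2rb, the shared signalling chain of the GM-CSF and IL-5 receptors, had the largest silica difference of the set. It measured 14.6, 25.6, 29.8 and 21.7 normalised CPM in control, 32.8, 29.3 and 21.6 in DMSO, 138, 69.6 and 54.8 in silica, and 52.0 and 80.4 in silica_DMSO. All 5 libraries given silica, with or without DMSO, lay above all 7 that were not. The share of all genes that split these libraries in this way was not counted. Against control, the log2 fold change was 1.93 ± 0.37 (SE) with an adjusted p = 0.164 in edgeR, and 1.95 with an adjusted p = 0.000929 in DESeq2. The difference was 1.94 within long-gene and 1.90 within short-gene libraries. Without silica 1, the highest library, the edgeR log2 fold change was 1.44. In TPM the silica and control libraries overlapped, with silica 7 at 7.56 TPM below control 4 at 8.90 TPM, and silica 7 and control 4 are of different length class. With the thymus-like libraries in the fit, the log2 fold change was 1.97 with an adjusted p = 0.787.

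Its neighbour Csf2rb2 was also higher in the silica libraries, but in silica_DMSO 5 it lay only slightly above the controls. Csf2rb2 measured 4.66 to 9.41 normalised CPM in control and 69.9, 21.1 and 15.02 in silica, without overlap, a log2 fold change of 2.36 ± 0.51 (SE, edgeR adjusted p = 0.213, DESeq2 adjusted p = 0.00292). Without silica 1 it was 1.38. In silica_DMSO it measured 20.1 and 9.98 normalised CPM, the latter next to control 4 at 9.41, although silica_DMSO 5 had the second highest Csf2rb. Since the pair shares sequence, the 2 differences may not be independent.

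The other receptor chains were less even. Csf2ra, the alpha chain that binds GM-CSF, measured 13.5, 15.6, 16.6 and 12.9 normalised CPM in control, 11.98, 10.7 and 11.5 in DMSO, 45.0, 21.5 and 14.8 in silica, and 14.2 and 4.61 in silica_DMSO. Silica 1 stood far above the other 2 silica libraries, and silica 7 lay within the control range. The log2 fold change against control was 0.89 ± 0.42 (SE, edgeR adjusted p = 0.855), with differences of 1.05 in long-gene and 0.13 in short-gene libraries and a fitted value of 0.31 without silica 1. Csf1r, the M-CSF receptor, measured 101, 107, 132 and 81.4 normalised CPM in control, 92.7, 48.0 and 83.2 in DMSO, 188, 126 and 92.2 in silica, and 115 and 73.4 in silica_DMSO. The groups overlapped, and silica against control gave 0.36 ± 0.34 (SE), with 0.55 in long-gene and -0.12 in short-gene libraries and 0.05 without silica 1.

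On normalised CPM, Pparg varied least of the set relative to its level, which did not hold in TPM, where it ran from 1.80 to 13.5 TPM. It measured 10.7, 12.8, 10.8 and 11.6 normalised CPM in control, 16.3, 12.8 and 14.02 in DMSO, 11.1, 21.1 and 16.1 in silica, and 12.9 and 12.5 in silica_DMSO. Silica 1, which had the highest Csf2rb and Csf2ra, was the lowest silica library for Pparg and overlapped the controls. The log2 fold change was 0.49 ± 0.26 (SE, edgeR adjusted p = 0.941), and 0.24 without silica 2. Over the 12 libraries Pparg spanned 10.7 to 21.1 normalised CPM, where Csf2rb spanned 14.6 to 138.

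**Figure D2:**
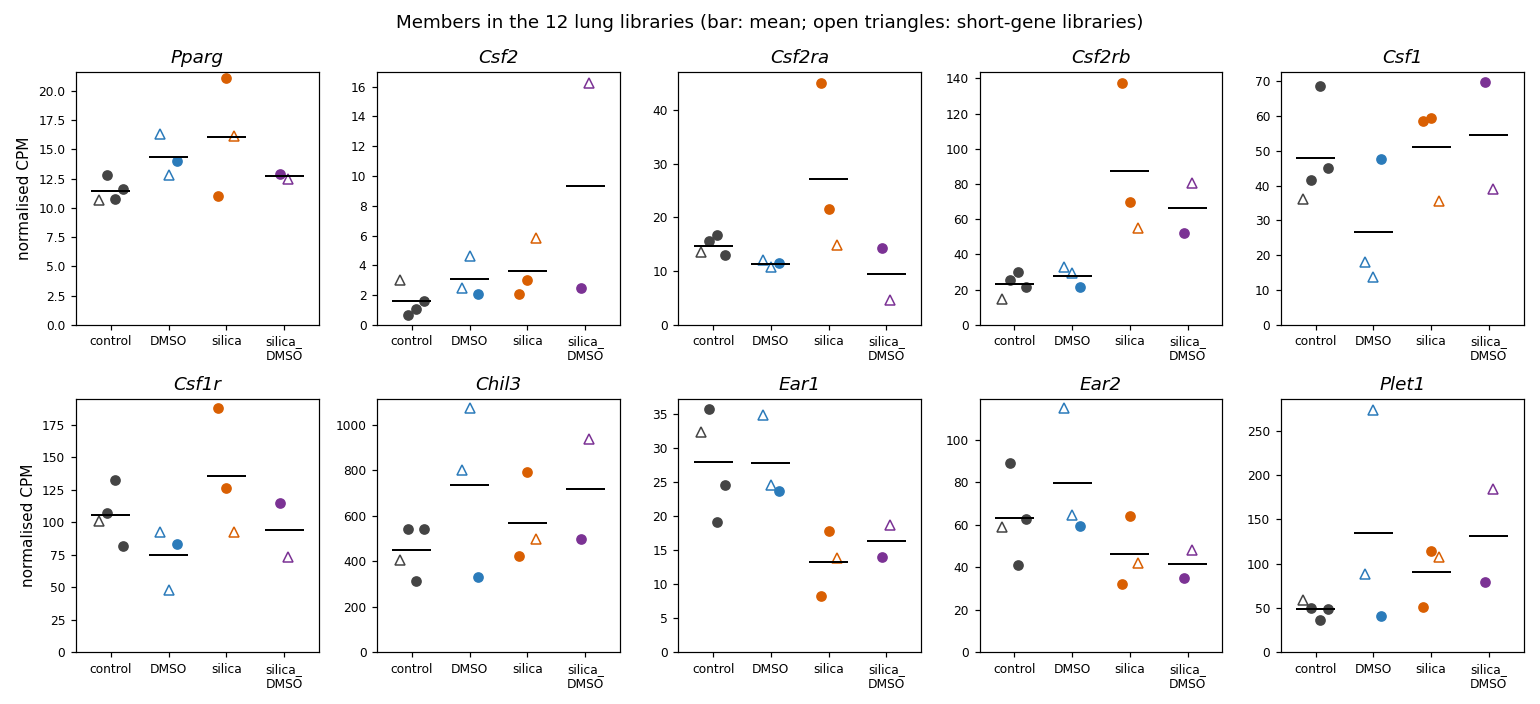
Normalised CPM of each member in the 12 lung libraries by group, bars giving group means and open triangles the short-gene libraries. Csf2rb lay at 52.0 or more in all 5 libraries given silica and at 32.8 or less in the other 7, and Ear1 lay at 18.7 or less in those 5 and at 19.1 or more in the other 7. The share of all genes that split the 5 from the 7 was not counted.

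Of the product genes, Ear1 and Ear2 had fitted values below 0 after silica, and Ear1 was the one whose libraries did not overlap. Ear1 measured 32.4, 35.9, 19.1 and 24.6 normalised CPM in control, 34.99, 24.6 and 23.8 in DMSO, 8.19, 17.8 and 13.9 in silica, and 13.98 and 18.7 in silica_DMSO. As with Csf2rb but in the opposite direction, the 5 libraries given silica did not overlap the 7 others, although silica_DMSO 5 and control 4 were close. Here too the share of all genes that did so was not counted. Against control the log2 fold change was -1.07 ± 0.34 (SE, edgeR adjusted p = 0.543). It was -1.08 in long-gene and -1.22 in short-gene libraries, and between -1.34 and -0.82 when each library was left out. In TPM the groups overlapped, at 39.95 to 93.9 TPM in control and 18.9 to 42.6 TPM in silica.

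Ear2 differed less. It measured 58.9, 89.2, 41.0 and 62.6 normalised CPM in control, 115, 64.7 and 59.2 in DMSO, 32.2, 63.9 and 41.9 in silica, and 34.8 and 48.1 in silica_DMSO. The silica libraries overlapped the controls, with a log2 fold change of -0.45 ± 0.36 (SE). The share of Ear1 in the counts of the pair, a measure chosen after its values were seen and given with no test, was 35.5%, 28.7%, 31.8% and 28.3% in control, 23.3%, 27.5% and 28.7% in DMSO, 20.3%, 21.8% and 24.8% in silica, and 28.6% and 28.0% in silica_DMSO. It averaged 31.0% ± 3.33 (SD, n = 4) in control and 22.3% ± 2.32 (SD, n = 3) in silica, without overlap. Of the silica_DMSO libraries, silica_DMSO 2 lay within the control range and silica_DMSO 5 just below it. In the thymus-like libraries the share was 20.9%, 6.54% and 3.04%.

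Ear6, the relative printed beside them, stood the other way. It measured 0.170, 0.228, 0.0864 and 0.180 normalised CPM in control, 0.388, 0.313 and 0.0442 in DMSO, 2.17, 8.72 and 10.1 in silica, and 3.12 and 7.39 in silica_DMSO. That is 1 to 7 counts in each library without silica and 50 to 201 counts in each with it. The log2 fold change against control was 5.35 ± 0.74 (SE, edgeR adjusted p = 0.06). The alternatives gave 4.93 to 5.77 with an adjusted p from 4.71e-09 to 0.903, and 7 of 20 called it. For silica_DMSO against DMSO it was 4.41 ± 0.84 (SE, edgeR adjusted p = 1). Of the other eosinophil-associated ribonucleases, Ear14 and Ear-ps2 had 0 counts in the 12 lung libraries and Ear10 had 2 counts in control 2 alone. Rnase2a had 0 to 2 counts in each lung library without silica, 3, 11 and 4 in silica, and 1 and 2 in silica_DMSO. Rnase2b had 1 to 5 counts in each of the 12. Neither passed the filter on low counts, so neither was tested. Epx, the eosinophil peroxidase, had 1 count in DMSO 6 and 0 in the other 11, and Prg2, another eosinophil granule gene, overlapped between groups at 1.55 ± 1.15 (SE).

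**Figure D3:**
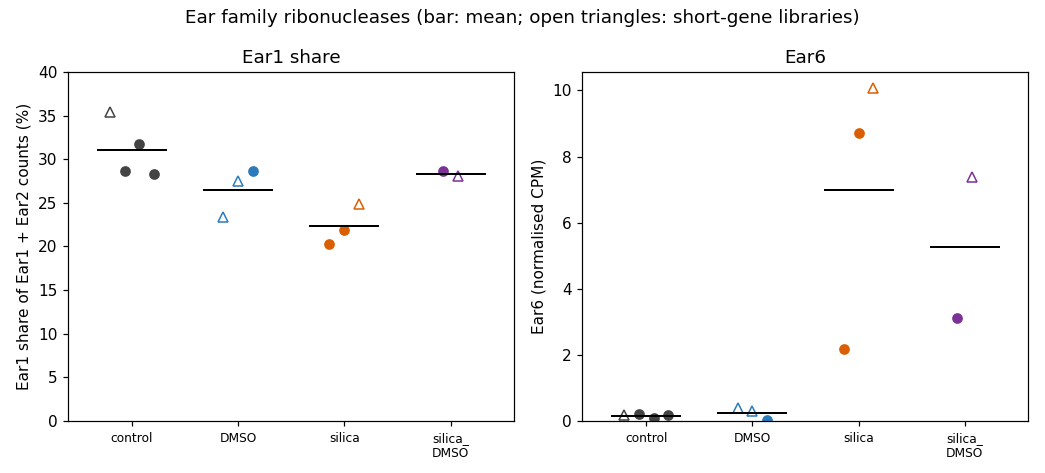
Left, share of Ear1 in the summed Ear1 and Ear2 counts (%), and right, Ear6 in normalised CPM, per lung library and group, bars giving means and open triangles the short-gene libraries. The silica libraries lie at 20.3% to 24.8% for Ear1 against 28.3% to 35.5% in control, and at 2.17 to 10.1 normalised CPM for Ear6 against at most 0.228.

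Chil3 and Plet1 varied mostly between libraries of a group. Chil3 measured 407, 543, 311 and 542 normalised CPM in control, 799, 1075 and 330 in DMSO, 421, 792 and 496 in silica, and 497 and 939 in silica_DMSO. Its 2 highest DMSO values and the higher silica_DMSO value were short-gene libraries. Silica against control gave 0.34 ± 0.46 (SE). Plet1 measured 58.9, 49.7, 35.7 and 49.0 normalised CPM in control, 88.6, 274 and 40.7 in DMSO, 50.4, 114 and 108 in silica, and 78.7 and 184 in silica_DMSO. Silica against control was 0.91 ± 0.57 (SE, edgeR adjusted p = 1), overlapping in normalised CPM through silica 1 and control 1 and apart in TPM, at 23.5 to 38.3 TPM against 46.9 to 78.8 TPM. Here too the share of all genes that lay apart in TPM was not counted. Correlation with the share of counts in long genes was -0.84 for Plet1 and -0.72 for Chil3 over the 12 libraries. Of the airway epithelium genes that could accompany Plet1, all 6 were above 0 in silica against control with a median of 0.35, led by Krt5 at 4.46 ± 1.66 and Foxj1 at 0.60 ± 0.59 (edgeR adjusted p = 0.69 and 1). Control 1, control 2 and control 4 each had 1 of the 6 genes at 0 counts, and no silica library did. Silica 1 stood apart in this list, with a summed level of 58690 TPM against 213000 to 345500 TPM in control, and Scgb1a1, the main club cell product, at 7169 normalised CPM against at least 27620 in control. Silica 1 was also the library with the highest Csf2rb and Csf2ra, and the part of these markers was not tested.

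**Figure D4:**
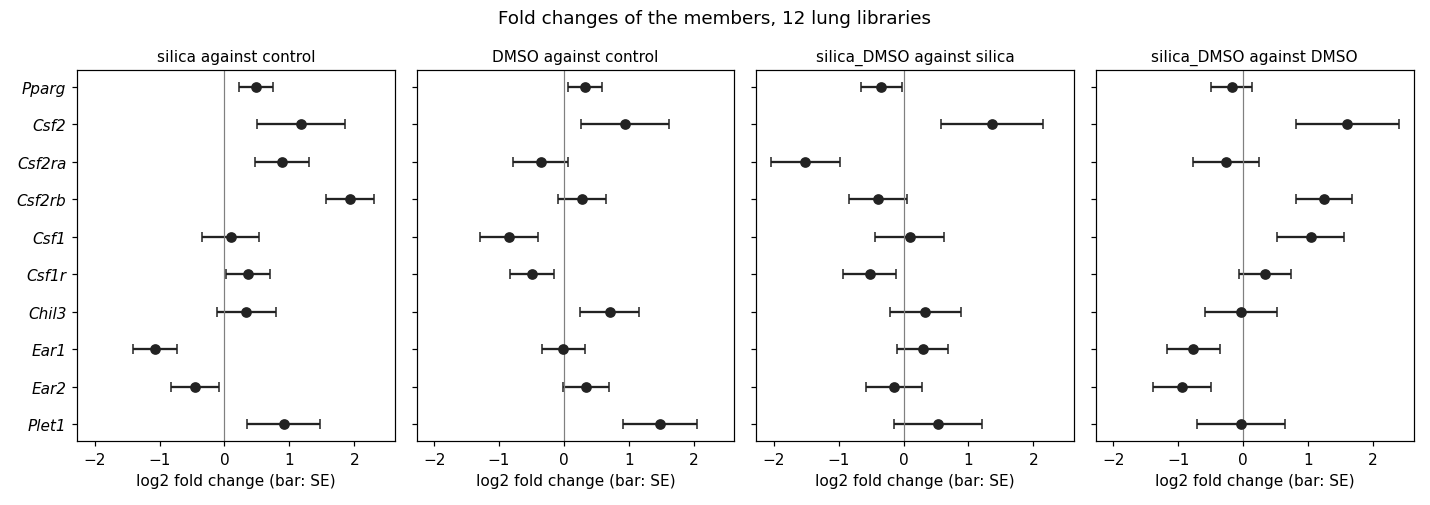
Log2 fold change with SE of the 10 members in 4 comparisons of the 12 lung libraries. For silica against control, Csf2rb at 1.93 and Ear1 at -1.07 stand farthest from 0 relative to their errors, and no member was called by edgeR.

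The rest of the GM-CSF and M-CSF pathway was followed in a list of 19 genes, of which 16 were tested. None was called in silica against control by edgeR, and 12 of 16 were above 0 with a median of 0.29. At an unadjusted p under 0.05 stood 4 of them, and 1055 of all 17630 genes. Spi1, which encodes PU.1, was second in p at 0.94 ± 0.28 (SE, adjusted p = 0.515), measuring 27.5 to 33.2 normalised CPM in control and 54.3, 66.6 and 50.1 in silica, without overlap. Cish, a feedback inhibitor induced by STAT5 that GM-CSF activates, was at -0.45 ± 0.33 (SE), and Stat5a and Stat5b were at 0.16 and -0.25. The cytokine Il3, a second user of the beta chains, had 0 counts in all 12 lung libraries.

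Lipid genes linked to PPARG gave no common direction. In silica against control 6 of 13 were above 0, with a median of -0.05. Fabp4, Abcg1, Lpl and Cidec also belong to the list of other alveolar macrophage genes below, so these lists are not independent. Plin2, the coat protein of lipid droplets, was at 0.96 ± 0.39 (SE, edgeR adjusted p = 0.765), Angptl4, an inhibitor of lipoprotein lipase, at -1.12 ± 0.68 (adjusted p = 0.994), and the fatty acid binding gene Fabp4 at 0.30 ± 0.51. Adipocyte genes, a list with no gene in common with the lipid list, had 5 of 8 above 0, with Plin4 at -0.70 ± 0.54 and Adipoq at 0.51 ± 0.59.

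Other alveolar macrophage genes had fitted values mostly above 0. Of 19 tested, 14 were above 0 in silica against control, with a median of 0.28, and 6 lay above the controls in every silica library, where 5.41% of all genes did. Below the controls in every silica library lay 0 of the 19, where 5.19% of all genes did. Slc39a2, a zinc transporter gene, was the only one that edgeR called, where it called 0.0113% of all genes. It rose from 1.25, 1.05, 0.993 and 1.53 normalised CPM in control to 8.19, 14.7 and 11.3 in silica, a log2 fold change of 3.24 ± 0.40 (SE, adjusted p = 0.037). It measured 2.55, 2.74 and 1.02 in DMSO and 7.70 and 9.501 in silica_DMSO. The call was kept in 9 of 20 alternatives. Among the fits that lost it, its adjusted p was 1 with the thymus-like libraries included and 0.0604 to 0.288 when any 1 library other than DMSO 4, DMSO 6 or silica 1 was left out, with a log2 fold change of 3.01 to 3.43 throughout.

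The next genes by p were receptors and a proton pump subunit. Olr1, a receptor for oxidised lipoprotein, gave 2.12 ± 0.42 (edgeR adjusted p = 0.182), Marco, a scavenger receptor that binds silica, 2.03 ± 0.50 (adjusted p = 0.348), and Atp6v0d2, a subunit of the vacuolar proton pump, 1.90 ± 0.42 (adjusted p = 0.221). Itgax, the CD11c integrin chain, gave 1.29 ± 0.34 (adjusted p = 0.411). DESeq2 called Olr1 (adjusted p = 0.00137), Marco (0.0238) and Atp6v0d2 (0.00628) but not Itgax (0.0616). By contrast the defining lectin Siglecf was at 0.15 ± 0.38, measuring 3.58 to 6.97 normalised CPM in control and 4.16 to 7.57 in silica. Fabp1, Cidec, Car4, Il18 and Lpl were below 0, with the lowest value, -0.94 ± 0.72, at Fabp1.

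**Figure D5:**
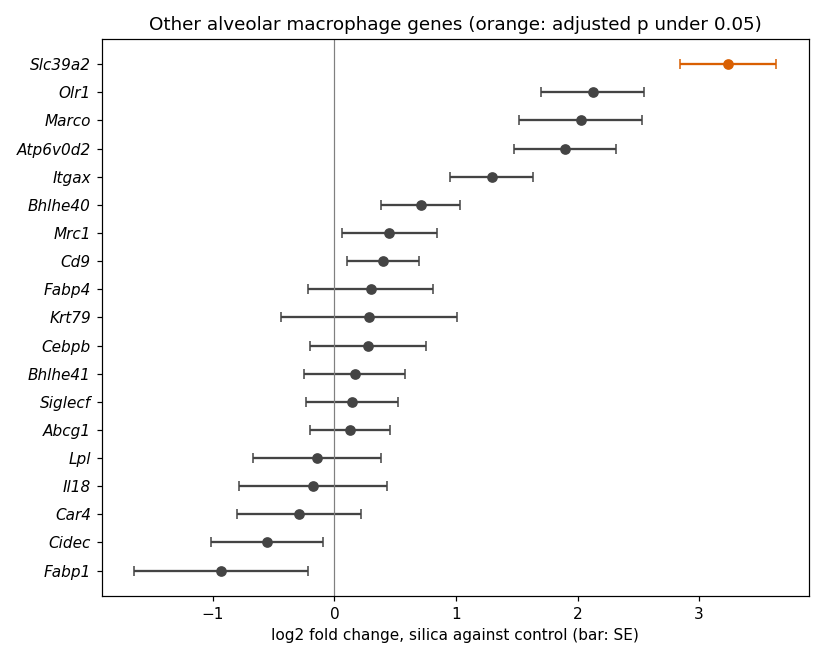
Log2 fold change with SE of 19 other alveolar macrophage genes in silica against control, sorted by value, with the 1 gene called by edgeR, Slc39a2, in orange. Values run from -0.94 for Fabp1 to 3.24 for Slc39a2, and Siglecf lies at 0.15.

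Markers of other cells were read in the same comparison, and edgeR called none of them. Genes of the pan-macrophage list were above 0 at 6 of 7 with a median of 1.08, led by Cd68 at 2.39 ± 0.43 and Adgre1 at 1.64 ± 0.48 (edgeR adjusted p = 0.132 and 0.486). That list includes Csf3r, Itgam and Ptprc, which are not particular to macrophages. Monocyte and interstitial macrophage genes were above 0 at 13 of 14 with a median of 1.36, led by Fcgr1 at 1.43 ± 0.41 and Cd14 at 1.70 ± 0.52 (adjusted p = 0.459 and 0.525), and their summed level ran from 873 to 1725 TPM in control and 1219 to 7215 TPM in silica. Neutrophil genes were above 0 at 6 of 6 with a median of 1.66, with Mmp8 at 1.51 ± 0.56 and Ly6g at 2.74 ± 1.07. Their summed level was 230 to 714 TPM in control and 211 to 2884 TPM in silica, with silica 1 below every control. Csf2rb, Csf2ra and Csf1r are also expressed by these cells, and their part in the receptor values was not tested.

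Epithelial and type 2 response genes stood as follows. Alveolar type 2 genes, a source of Csf2, were above 0 at 1 of 8 with a median of -0.32, with Sftpb at -0.53 ± 0.44 and Napsa at -0.30 ± 0.34. Genes of the chitinase-like and type 2 response list were above 0 at 8 of 9 with a median of 1.33, led by Clca1 at 4.27 ± 0.92 and Muc5ac at 2.18 ± 0.63 (edgeR adjusted p = 0.213 and 0.472). Of the thymus markers 3 were tested in the 12 libraries and 2 were above 0 with a median of 0.23, Cd8b1 at -0.67 ± 0.40 and Cd4 at 0.70 ± 0.59.

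DMSO alone was compared with control next. By edgeR 0 members and 0% of all genes were called, with 1 member and 1519 of 17630 genes at an unadjusted p under 0.05. DESeq2 called 0 members and 60 of the 17630 genes. Of the 10 members 6 were above 0 and 4 below, with a median of 0.30 against -0.04 over all genes. None lay above all controls in every DMSO library, where 3.71% of all genes did, and 1, Csf2ra, lay below, where 3.98% did. Its log2 fold change was -0.36 ± 0.43 (SE, edgeR adjusted p = 0.669). Plet1 had the smallest p, at 1.48 ± 0.57 (SE, edgeR adjusted p = 0.513), but the groups overlapped, and the difference was 1.40 in short-gene libraries (2 against 1) and -0.12 in long-gene ones (1 against 3). Without DMSO 4, at 274 normalised CPM, the fitted Plet1 value was 0.43. Chil3 likewise differed between the classes, at 1.19 and -0.45, with a fitted value of 0.71 ± 0.46 that was 0.34 without DMSO 4. Csf1 was at -0.85 ± 0.45, which was -1.59 without DMSO 6 and -0.54 without DMSO 4, and Ear1 at -0.01 ± 0.33.

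The addition of DMSO after silica was tested as silica_DMSO against silica, with 2 and 3 libraries. By edgeR 0 members and 0% of all genes were called, with 1 member and 342 of 17630 genes at an unadjusted p under 0.05. DESeq2 called 0 members and 0 of the 17630 genes. Above and below 0 stood 5 members each, with a median of -0.03. None lay above all silica libraries, where 2.78% of all genes did. Csf2ra lay below in both silica_DMSO libraries, where 3.83% of all genes did, at -1.52 ± 0.53 (SE, edgeR adjusted p = 0.997). The gap between silica_DMSO 2 at 14.2 and silica 7 at 14.8 normalised CPM was small, but the differences within length classes were -1.12 and -1.66. The fitted value was -2.57 without silica_DMSO 2 and -0.93 without silica 1. Csf2rb gave -0.40 ± 0.45 and Ear1 0.30 ± 0.39, each within its error of 0, which does not show that they stayed the same. Csf2 gave 1.36 ± 0.79, which was -0.52 without silica_DMSO 5.

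Silica_DMSO was also compared with DMSO, so that both groups had received the solvent. By edgeR 0 members and 0% of all genes were called, with 1 member and 335 of 17630 genes at an unadjusted p under 0.05. DESeq2 called 0 members and 10 of the 17630 genes. Of the members 4 were above 0 and 6 below, with a median of -0.03 against 0.05 over all genes. Csf2rb lay above every DMSO library in both silica_DMSO libraries, where 4.73% of all genes did, at 1.25 ± 0.44 (SE, edgeR adjusted p = 1), with 1.26 in long-gene and 1.37 in short-gene libraries. Ear1 and Ear2 lay below in both, where 5.03% of all genes did, at -0.77 ± 0.40 and -0.94 ± 0.45 (SE, adjusted p = 1). The silica difference in the absence of DMSO rests on other libraries, so these groups give a second set of values: 1.93 and 1.25 for Csf2rb, -1.07 and -0.77 for Ear1, -0.45 and -0.94 for Ear2, and 5.35 and 4.41 for Ear6. The signs were opposite for Csf2ra (0.89 and -0.27), Pparg (0.49 and -0.18), Plet1 (0.91 and -0.03) and Chil3 (0.34 and -0.03). Csf2, Csf1 and Csf1r were above 0 both times.

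Whether the silica difference itself changed with DMSO was tested as an interaction. By edgeR 0 members and 0% of all genes were called, with 0 members and 485 of 17630 genes at an unadjusted p under 0.05. DESeq2 called 0 members and 1 of the 17630 genes. The largest value was that of Csf2ra, -1.15 ± 0.67 (SE, edgeR adjusted p = 1), which ran from -2.21 without silica_DMSO 2 to -0.57 without silica 1. Csf2rb gave -0.68 ± 0.58 and Ear1 0.31 ± 0.51.

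Co-variation over the 12 lung libraries described the members further. On log2 CPM, Chil3 and Plet1 had a Pearson r of 0.88, Ear1 and Ear2, which share sequence, 0.87, Csf2ra and Csf1r 0.77, and Csf2rb and Ear1 -0.82. These points share library composition and the groups. Among 13790 genes searched, those most like Csf2rb were Gpnmb, a glycoprotein of lipid-laden macrophages, at r = 0.98, and Lhfpl2 at 0.98. For Csf2ra they were Mmp14 and Mfsd7a (both 0.96), for Csf1r the lysosomal nucleoside transporter Slc29a3 (0.95) and Fnip2 (0.94), and for Csf1 the collagen gene Col18a1 (0.96) and Arhgef40 (0.95).

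For Csf2 the most alike were the surfactant protein gene Sftpa1 (r = 0.96) and Mvd (0.95), an enzyme of sterol synthesis. Pparg was most like Msmo1 (0.88), also of sterol synthesis, and Metap2 (0.81). The product genes were most like Tekt3 (0.91) and Cop1 (0.90) for Chil3, Ifitm1 and Pnp (both 0.97) for Plet1, Taf1b and Mageh1 (both 0.91) for Ear1, and Tfb2m (0.90) and Stard6 (0.88) for Ear2. With the share of counts in long genes the members correlated at 0.77 for Csf1r, 0.76 for Csf1 and 0.69 for Csf2ra, but at 0.03 for Csf2rb, -0.17 for Pparg and -0.27 for Ear1.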

How the data were processed

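RNA of mouse lung was sequenced in 15 libraries, grouped by the labels. Expected counts per gene were deposited by the authors, 7.52% to 10.0% of them with a fractional part in each library. The TPM were made by the authors and deposited, and a gene length, an other value, is given in both tables per the file headers. Bowtie 0.12.2 and build mm8, named in the submitters' processing notes, could not be checked here. Which program made the estimates is not given in the sources used.

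Expected counts were rounded (a library total changed by at most 53.9 counts), filtered with filterByExpr (smallest count 10, smallest total 15) and scaled by TMM. The test was the robust quasi-likelihood F test of edgeR on 4 group means over 12 libraries, after leaving out the 3 with thymus RNA, and adjusted by Benjamini and Hochberg over all 17630 genes. Calls are genes whose adjusted p lies under 0.05. The biological coefficient of variation was 0.52. Fold changes are log2 with SE. R 4.3.3, edgeR 4.0.16, DESeq2 1.42.0, limma 3.58.1, Python 3.11.15, Biopython 1.88 and matplotlib 3.10.9 were used. The edgeR test of silica against control was tried on simulated data. It called 0%, 14.3%, 68% and 79.6% of genes changed by 2, 4, 8 and 16 fold. A member that was not called may therefore still have changed.

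Members, gene lists, tests and alternatives were chosen with earlier results of these data known. Named were all members, called genes of each list or else its 2 genes of smallest p in silica against control, and the 2 genes most correlated with each member (log2 CPM, prior count 2, mean at least 1 CPM). Ear14, Ear-ps2, Ear10, Rnase2a, Rnase2b, Epx, Il3, Cish, Stat5a, Stat5b, Fabp4 and the alveolar macrophage genes other than Slc39a2 were named after their values were seen. RefSeq start-site windows (GRCm38.p6) and GENCODE M21 transcripts gave the sequences. Alternatives were all 15 libraries, only the 2 groups compared, DESeq2, its size factors in edgeR, no filter, an offset or term for gene length, the replicate number as a block, leaving out each library, and CPM in place of TPM.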

Additional observations from a re-analysis of the deposited data

Results flagged for a closer look

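Csf2 in DMSO 6 stood at 4.14 TPM, apart from the other 3 libraries labelled DMSO at 2.63 to 2.85 TPM, the thymus-like one included. It was the only value far from its group in 30 sets of 4 libraries, no more than the 1 in 20 or so that chance gives. The DMSO and silica_DMSO sets all included thymus-like libraries.

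Pparg lay above the control mean in every DMSO library, by 0.156 to 0.507 on the log2 scale, and below the silica mean in both silica_DMSO libraries, which differed from it by -0.316 and -0.268. The edgeR interaction of silica and DMSO was -0.67 ± 0.41 (SE, adjusted p = 1), so a difference between the 2 effects of DMSO was not shown.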

How the results depend on the processing

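No member was called by edgeR under any alternative. DESeq2 called 1 in silica against control, Csf2rb at 1.95 (adjusted p = 0.000929). In that comparison the fit with each whole-set alternative kept the direction of all 10 members, and leaving out single libraries turned only Csf1. No direction changed without the filter or with only the 2 groups compared. Over all genes, edgeR called 2 genes in silica against control, 0 with all 15 libraries, 41 with only the 2 groups, 21 without the filter, 8 with the length offset, 15 with the length class, and DESeq2 150.

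With all 15 libraries, silica_DMSO against silica turned to -0.58 for Csf1, -0.40 for Plet1, -0.63 for Chil3 and -0.65 for Ear1, and the interaction to -0.21 for Csf2 and -0.31 for Ear1. In silica_DMSO against DMSO, Plet1 and Chil3 turned to 0.00090 and 0.0065 with DESeq2, 0.00088 and 0.0065 with its size factors, 0.11 and 0.052 with the length offset, and 0.20 and 0.058 with the length class. The length offset also turned Ear2 in DMSO against control (-0.35), Csf2rb and Ear1 in silica_DMSO against silica (0.044 and -0.35) and the interaction for Csf2 (-0.11). The cause of these turns was not tested.

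Replicate numbers did not pair the libraries: of 8 same-numbered pairs 3 correlated above 0.1 (r from -0.46 to 0.39), and 0 of 10 libraries correlated best with its own number. With the replicate block edgeR called 0 members. The block turned Ear1 in DMSO against control (0.40), Plet1, Chil3 and Ear1 in silica_DMSO against silica (-0.36, -0.52 and -0.22), Csf2ra in silica_DMSO against DMSO (0.71), and the interaction for Csf2, Csf1r and Ear1 (-1.05, 0.68 and -0.62). With the block, Csf2ra was at -0.78 in silica_DMSO against silica and at -0.10 in the interaction, where Plet1 (-2.24) and Csf1 (2.10) were larger, and edgeR no longer called Slc39a2 in silica against control (adjusted p = 0.438).

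Leaving out each library turned the sign in 34 of 600 fits of a member. For silica against control the log2 fold changes ran, by member, over Csf1 -0.026 to 0.32. For DMSO against control the log2 fold changes ran, by member, over Ear2 -0.0014 to 0.56 and Ear1 -0.19 to 0.13. For silica_DMSO against silica the log2 fold changes ran, by member, over Csf1 -0.40 to 0.45, Csf2 -0.52 to 2.15, Plet1 -0.20 to 1.00, Chil3 -0.19 to 0.70, Csf2rb -0.75 to 0.093 and Ear2 -0.39 to 0.16. For silica_DMSO against DMSO the log2 fold changes ran, by member, over Csf2 -0.28 to 2.39, Csf1r -0.044 to 0.64, Plet1 -0.76 to 1.05, Chil3 -0.55 to 0.37 and Csf2ra -1.33 to 0.34. For interaction of silica and DMSO the log2 fold changes ran, by member, over Csf2 -1.48 to 1.20, Csf1r -0.41 to 0.28, Plet1 -1.70 to 0.12 and Chil3 -0.92 to 0.0099. The silica_DMSO group held only 2 lung libraries, so leaving out 1 assumes that the other varies like the rest. Depth limited Csf2, with 15 counts in its lowest lung library.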
